A study of Mus musculus with 4 samples.

Results

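The microRNA genes described here are 300 of the 595 microRNA genes measured on the arrays, and 300 of the 30142 genes tested. A gene qualified where its symbol named a microRNA (or a let-7 gene) and not a microRNA host transcript, and where a transcript cluster, the unit that the array reports, carried that symbol alone. Of these, the 300 with the highest mean over all 4 arrays were taken. They were thus chosen by their mean level, and levels are given as a description. The rule did not use the difference between the treatments. The mean holds both groups, though, so high values in either group alone could make a gene a member. The members were also chosen with earlier results of these data known.

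RNA came from the lungs of C57BL/6 mice, from the CD45-negative cells, which lack the surface protein that marks leukocytes. The mice had received phosphate-buffered saline (PBS, 2 arrays) or bleomycin (BLM, 2 arrays) by the intratracheal route 10 days before. Bleomycin breaks DNA, injures the lung and is used to bring on fibrosis in mice. The sources used here do not give the age and sex of the mice, nor whether each array holds RNA of its own animal or of a pool. The p-values therefore set the difference between the groups against how far the arrays of a group lie apart, and that distance may be technical.

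MicroRNA genes are transcribed into long precursors, often as part of a host gene or together with neighbouring microRNA genes. Drosha cuts a hairpin out of the precursor in the nucleus, Dicer cuts a short duplex out of the hairpin in the cytoplasm, and 1 strand is loaded onto an Argonaute protein. The loaded strand finds messenger RNAs mainly through its seed, bases 2 to 8, and lowers their stability and translation. In the lung, miR-29 is known as a repressor of collagen and elastin genes, miR-21 as a microRNA that rises in fibrosis, and miR-200 as a repressor of the Zeb factors that keeps epithelium epithelial. The arrays were hybridised with labelled total RNA, and a value here is the level of the transcript cluster that carries the gene's name. The mature strand was not measured apart from its precursors.

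Among the members, 212 have at least 1 mature sequence in the RefSeq table (build GRCm38.p6), 341 sequences in all, with 314 different seeds. The following strands belong to the genes on which the results turn, and the seed is in capitals. They are shown because members that share a seed did not always share a direction.
miR-30c-5p (Mir30c-2 and Mir30c-1): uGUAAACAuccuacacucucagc
miR-30e-5p (Mir30e): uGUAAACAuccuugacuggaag
miR-26a-5p (Mir26a-1): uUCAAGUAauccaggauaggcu
miR-26b-5p (Mir26b): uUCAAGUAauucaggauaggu
miR-29a-3p (Mir29a): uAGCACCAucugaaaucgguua
miR-29b-3p (Mir29b-1): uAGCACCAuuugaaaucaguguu
let-7a-5p (Mirlet7a-1): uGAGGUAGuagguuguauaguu
let-7b-5p (Mirlet7b): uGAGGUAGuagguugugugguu
let-7d-5p (Mirlet7d): aGAGGUAGuagguugcauaguu
let-7e-5p (Mirlet7e): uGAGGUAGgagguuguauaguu
let-7f-5p (Mirlet7f-1): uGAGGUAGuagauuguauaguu
miR-98-5p (Mir98): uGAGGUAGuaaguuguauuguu
miR-23a-3p (Mir23a): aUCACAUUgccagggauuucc
miR-27a-3p (Mir27a): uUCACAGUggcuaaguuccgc
miR-24-3p (Mir24-2): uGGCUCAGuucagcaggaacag
miR-100-5p (Mir100): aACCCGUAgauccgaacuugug
miR-544-3p (Mir544): aUUCUGCAuuuuuagcaagcuc
miR-493-3p (Mir493): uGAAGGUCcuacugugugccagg
miR-34b-5p (Mir34b): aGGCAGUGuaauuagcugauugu
miR-34a-5p (Mir34a): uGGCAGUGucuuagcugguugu
miR-449c-5p (Mir449c): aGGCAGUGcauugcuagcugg

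On the BLM arrays 96 of the 300 microRNA genes passed the threshold, an adjusted p under 0.05 in the limma fit over all 30142 genes, of which 33 rose and 63 fell. The share was 32.0% of the members against a background of 25.3% of all genes. Higher calls made up 11.0% of the members and 15.2% of all genes, and lower calls 21.0% and 10.1%. Members were chosen by level and the background holds dim genes, and the comparison of all calls turned without them. With genes below the median level, 6.03, left out, 97 of 220 members were called, or 44.1% against 53.4% of all such genes. Lower calls were still the larger share among the members, 31.4% against 21.9%, and higher calls the smaller, 12.7% against 31.5%. The middle of the members' differences, BLM minus PBS on the log2 scale, was -0.16, with quartiles of -0.40 and 0.17, and the median over all genes was 0.05. After cyclic loess scaling, which moved the median of all genes to -0.0037, 9.0% of the members were higher and 24.7% lower, against 12.7% and 12.9% of all genes. The values of the groups did not overlap for 184 members, or 61.3%, against a background of 63.3%. A difference of at least 1 log2 unit was found in 22 of the called members (7.33% against a background of 5.14%), 8 of them higher (2.67% against 2.81%) and 14 lower (4.67% against 2.33%). The number of calls depended on the BLM arrays. It was 58 without the first BLM array and 61 without the second, where 13.3% and 14.5% of all genes were called. Of the 96 called members, 36 kept their call when each of the 4 arrays was left out in turn, 13 higher and 23 lower.

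**Figure D1:**
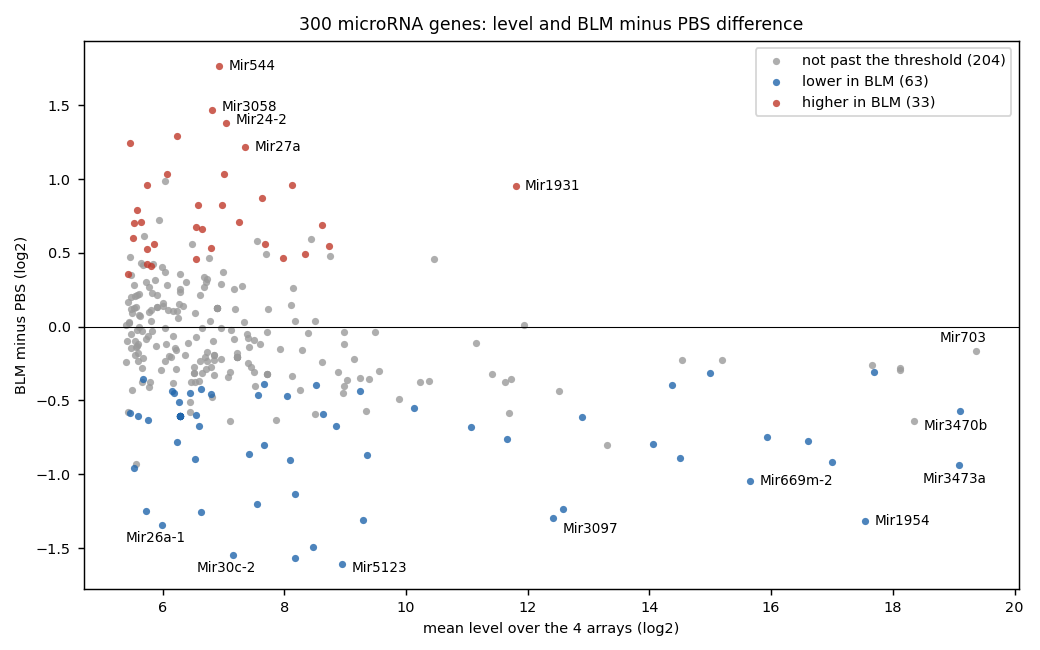
Each point is 1 of the 300 microRNA genes, placed by its mean level over the 4 arrays (log2, horizontal) and its BLM minus PBS difference (log2, vertical); red marks the 33 genes higher in BLM, blue the 63 lower and grey the 204 not past the threshold. The members at a mean level of 14 or more all lie below 0, with Mir1954, Mir669m-2 and Mir3473a among the lowest of them.

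Other features of the samples moved with the treatment. Xist, transcribed from the inactive X chromosome of female cells, gave 15.9 and 15.6 in the PBS group and 5.60 and 5.43 in the BLM group, and Kdm5d, Uty and Eif2s3y of the Y chromosome rose by 2.14 to 2.63. By these transcripts the PBS arrays held RNA of female cells and the BLM arrays RNA of male cells, at least for the most part. The treatment therefore cannot be told apart from the sex of the cells. Of the 22 members on the X chromosome, 1 rose and 7 fell, so that 36.4% were called against 17.6% of all 1826 X genes. The members were chosen by level and the X genes were not, so these shares do not compare genes of like level. Without the X and Y genes 89 of 278 members were called, 32 higher and 57 lower, or 32.0% against 26.4% of all genes. As a background for the marker counts that follow, 15.2% of all genes rose and 10.1% fell. With genes below the median level left out, these shares were 31.5% and 21.9%. Leukocyte markers rose in 9 of 12 genes, Ptprc, which encodes CD45, by 0.94 (SE 0.08, adjusted p = 0.0017), Tyrobp by 3.01, Laptm5 by 2.49, Cd68 by 2.44 and Adgre1 by 1.32. Cd3e, Coro1a and Cd79a did not pass, at 0.33, 0.32 and -0.15. The log2 of the summed level of the 12 leukocyte markers was 9.96 and 10.1 on the PBS arrays and 11.8 on both BLM arrays. Endothelial markers rose in 2 of 4 genes and fell in none, Cdh5 by 0.85 (SE 0.14, adjusted p = 0.0098) and Kdr by 0.43 (SE 0.10, adjusted p = 0.036). Pecam1 and Tek did not pass and differed in direction, at 0.21 (adjusted p = 0.15) and -0.25 (0.20). The log2 summed level of the 4 endothelial markers was 14.5 and 14.7 after PBS against 15.1 and 14.9 after BLM. Red blood cell precursor markers did not pass, with adjusted p from 0.099 to 0.92 for the 4 measured. The part that these markers and the sex-linked genes play in the microRNA differences was not tested. In bulk RNA, fewer cells of a type and less RNA per cell cannot be told apart.

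The miR-29 genes lie side by side on chromosome 6, and 1 of the 2 changed. Mir29b-1 (chr6:31063023-31063093, minus strand of RefSeq GRCm38.p6) fell 2.20-fold. It stood at 8.55 and 8.94 after PBS against 7.60 and 7.61 after BLM, a difference of -1.14 (SE 0.14, adjusted p = 0.00462). The groups did not overlap, and the call held with each array left out. Mir29a (chr6:31062660-31062747) gave 5.44 and 5.78 in the PBS group and 5.59 and 5.63 in the BLM group, and these ranges overlapped, with a difference of -0.0031 (SE 0.13, adjusted p = 0.99). Its 95% interval and that of Mir29b-1 do not meet, although the difference between the 2 genes was not tested. The mature strands share their seed and differ in the bases that follow it. Mir29c and Mir29b-2 lie on transcript clusters that carry several gene symbols and were not analysed here.

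Genes known as targets of miR-29 rose on the same arrays. Of the 8 listed, 6 rose and 0 fell. Over all genes 15.2% rose, and 31.5% with genes below the median level left out. Col1a1, a chain of collagen I, went from 10.4 and 10.3 to 14.6 on both BLM arrays, and rose by 4.28 (SE 0.08, adjusted p = 0.000157), Col3a1 rose by 3.60, Eln, which encodes elastin, by 3.17 and Col1a2 by 3.12. Fibroblast and pericyte markers, Col1a1 and Col1a2 among them, rose in 4 of 5 genes, Pdgfrb by 2.88 and Tcf21 by 1.53. The remaining marker, Dcn, did not pass, at 0.28 (adjusted p = 0.12). The log2 summed level of the 5 markers was 15.5 and 15.7 against 16.6 on both BLM arrays. Most of the PBS sum came from Dcn, at 15.4 and 15.6 after PBS against 15.8 and 15.7 after BLM. Whether Mir29b-1 had any part in this was not tested.

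The members of the other families with a place in fibrosis were few. Mir21a lies on a cluster that carries several symbols and was not analysed here. Of 5 known miR-21 targets that were measured, 3 fell and 2 did not pass. Over all genes 10.1% fell, and 21.9% with genes below the median level left out. Reck, an inhibitor of matrix proteases, fell by 0.86 (SE 0.10, adjusted p = 0.0034), and the growth-factor antagonists Spry1 and Spry2 fell by 0.50 and 0.45. Pdcd4, an inhibitor of translation, lay at 0.0054 (adjusted p = 0.97) and Smad7, an inhibitor of TGF-beta signalling, at -0.25 (0.085). All 4 measured miR-200 genes lay below the limit of the 300. Mir200c, Mir200b, Mir141 and Mir200a had mean levels of 4.91, 4.84, 4.71 and 4.45, below the median of all genes, 6.03, and none passed the threshold, with differences of -0.03, 0.01, 0.30 and 0.13. Zeb1, a miR-200 target that represses epithelial genes, stood at 8.90 and 9.24 after PBS against 9.54 and 9.48 after BLM, 0.44 apart (SE 0.13, adjusted p = 0.065). Epithelial markers fell in 3 of 5 genes, Scgb1a1 by 1.68, Epcam by 0.96 and Cdh1 by 0.69. The remaining epithelial markers, Ager of flat alveolar cells and the surfactant gene Sftpc, did not pass, at 0.31 (adjusted p = 0.073) and 0.12 (0.52). The log2 summed level of the 5 markers, most of it from Sftpc, was 19.911 and 20.144 after PBS and 19.999 and 19.958 after BLM, so the groups overlapped.

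Mir23a, Mir27a and Mir24-2, which are cut from a shared precursor on chromosome 8, all rose. Mir24-2 (chr8:84208815-84208921, plus strand) gave 6.24 and 6.47 in the PBS group and 7.72 and 7.75 in the BLM group, a rise of 1.38 or 2.60-fold (SE 0.11, adjusted p = 0.00115). For Mir27a (chr8:84208672-84208758) the PBS arrays gave 6.93 and 6.56 and the BLM arrays 8.28 and 7.65, 1.22 higher (SE 0.24, adjusted p = 0.019). Mir23a (chr8:84208518-84208592) went from 7.80 and 7.48 to 8.71 and 8.50, up by 0.96 (SE 0.14, adjusted p = 0.00767). Every BLM value of the 3 genes was above every PBS value of the same gene. The calls of Mir24-2 and Mir23a held with each array left out, and that of Mir27a was lost without the second PBS array (1.03, adjusted p = 0.074). Their mature strands have 3 different seeds.

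Of 6 measured genes of the miR-10, miR-99/100 and miR-125 families, Mir100 and Mir125b-2 were members, and both rose. Mir99a, Mir10b, Mir99b and Mir125b-1 lay below the limit of the 300 and did not pass, at 0.25, -0.01, -0.07 and -0.43. Mir125b-2 lay below the level of the last member, 5.399, on both PBS arrays, so it was a member only through its BLM values. Mir100 stood at 5.58 and 5.52 after PBS against 6.88 and 6.28 after BLM, a rise of 1.03 (SE 0.20, adjusted p = 0.018), and Mir125b-2 rose by 0.60 (SE 0.13, adjusted p = 0.024). Mirlet7a-2, the neighbour of Mir100 on chromosome 9, differed by -0.20 (SE 0.11) and did not pass. Both calls depended on single arrays. Mir100 missed the threshold without the first PBS array (1.06, adjusted p = 0.061) or the second (1.0, 0.068), at a difference about as large as in the full fit. Mir125b-2 missed it without the second PBS array (0.47, adjusted p = 0.074) or the first BLM array (0.50, 0.11).

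The miR-30 genes, which are abundant in lung epithelium and known to act against the epithelial to mesenchymal transition, gave 2 falls and no rise among 5 members. Mir30c-2 (chr1:23291701-23291784) gave 8.03 and 7.83 in the PBS group and 6.49 and 6.28 in the BLM group, and fell by 1.54 or 2.92-fold (SE 0.12, adjusted p = 0.00113). Mir30e (chr4:120772606-120772697) went from 6.04 and 5.97 to 5.30 and 4.81, a fall of 0.96 (SE 0.17, adjusted p = 0.014) that was not called without the first PBS array (adjusted p = 0.059). Mir30c-1, which encodes the same mature miR-30c-5p as Mir30c-2, had overlapping groups, with 9.95 and 9.31 against 8.64 and 9.48, and a difference of -0.57 (SE 0.33, adjusted p = 0.28). So the 2 loci of 1 mature strand gave a call in 1 case and none in the other. Mir30d lay at -0.45 (adjusted p = 0.076), called without the first PBS array (adjusted p = 0.033), and Mir30b at 0.04 (adjusted p = 0.83).

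Both miR-26 genes fell. Mir26a-1 (chr9:119031796-119031885) stood at 6.52 and 6.80 after PBS against 5.31 and 5.33 after BLM, a difference of -1.34 (SE 0.12, adjusted p = 0.00161). Mir26b (chr1:74394310-74394394) went from 7.93 and 7.68 to 7.41 and 7.27, a fall of 0.46 (SE 0.12, adjusted p = 0.040). The groups did not overlap for either gene. The fall of Mir26a-1 held with each array left out, whereas that of Mir26b was called only without the second PBS array. The adjusted p of Mir26b was 0.12 without the first PBS array, 0.094 without the first BLM array and 0.17 without the second.

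Of the 12 measured let-7 genes, which repress growth genes such as Hmga2, 7 were members, and of these 3 fell, 1 rose and 3 did not pass. The X-linked Mir98 gave 7.72 and 7.99 in the PBS group and 6.91 and 7.08 in the BLM group, and fell by 0.86 (SE 0.12, adjusted p = 0.00695). Mirlet7e fell by 0.78 (SE 0.10, adjusted p = 0.00445), from 6.62 and 6.63 to 5.94 and 5.76. Mirlet7a-1, Mirlet7f-1 and Mirlet7d are neighbours on chromosome 13, and they differed in direction. Mirlet7a-1 fell by 0.60 (SE 0.11, adjusted p = 0.015), Mirlet7f-1 lay at -0.28 (SE 0.18, adjusted p = 0.32) with overlapping groups, and Mirlet7d rose by 0.56 (SE 0.13, adjusted p = 0.030), from 7.26 and 7.56 to 8.04 and 7.90. The rise of Mirlet7d was called with the second PBS array left out, and its adjusted p was 0.080, 0.14 and 0.072 without the first PBS, first BLM and second BLM array. Mirlet7a-1 missed the threshold without the first BLM array (adjusted p = 0.083). Mirlet7b and Mirlet7a-2 did not pass, at 0.04 and -0.20. The 6 members with a let-7 5p strand in the sequence table hold the same seed, and 3 of them fell while 1 rose. Among the let-7 targets measured, Hmga2, a chromatin protein of growing cells, rose by 0.64 (SE 0.10, adjusted p = 0.0088), and Lin28b and Igf2bp3 did not pass.

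**Figure D2:**
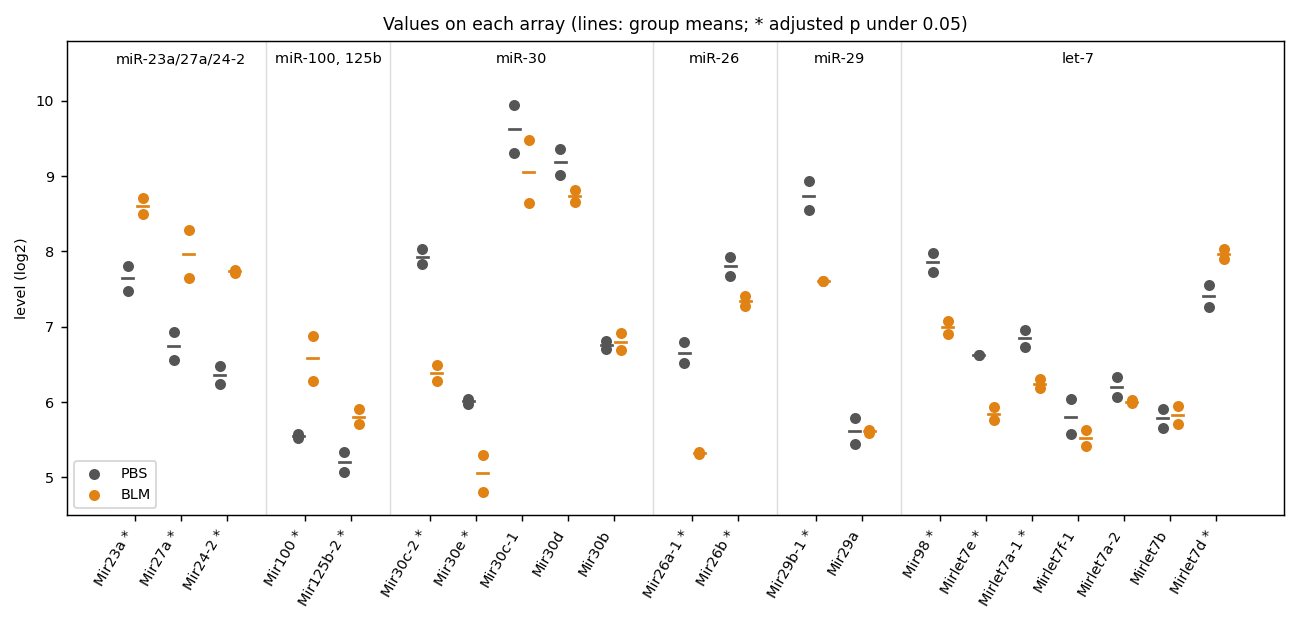
Level (log2, vertical) of the members of 6 families on each array, with the 2 PBS arrays in grey and the 2 BLM arrays in orange; the short lines are group means, and a star after a name marks an adjusted p under 0.05. Mir23a, Mir27a and Mir24-2 lie higher in BLM, Mir30c-2, Mir26a-1 and Mir29b-1 lower, and Mir29a, Mir30b and Mirlet7b at about the same level in both groups.

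Mir34b, Mir34a and Mir449c share the seed of miR-34 and miR-449, a family that is known for its part in the making of motile cilia. They did not move together. Mir34b stood at 7.94 and 7.78 after PBS against 7.39 and 7.55 after BLM, and fell by 0.39 (SE 0.11, adjusted p = 0.0498). It missed the threshold whichever array was left out (adjusted p from 0.063 to 0.23). Mir449b rose by 0.47 (SE 0.09, adjusted p = 0.017), a call kept without the first PBS array only (adjusted p from 0.059 to 0.099 without any other). Mir34a differed by 0.43 (SE 0.18, adjusted p = 0.15) and Mir449c by -0.02 (SE 0.11, adjusted p = 0.91).

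In the list of microRNAs that are abundant in leukocytes, 3 of 5 measured genes were members. Mir142, a microRNA of blood cells, gave 5.88 and 5.90 in the PBS group and 5.18 and 5.39 in the BLM group, a fall of 0.61 (SE 0.10, adjusted p = 0.011; 0.061 without the first BLM array). Leukocyte marker genes rose on the same arrays, as given above. Mir146b and Mir155, which are induced in inflamed cells, did not pass, at 0.30 (SE 0.11, adjusted p = 0.12) and 0.10 (SE 0.12, adjusted p = 0.59). Mir130a fell by 0.35 (SE 0.09, adjusted p = 0.037; from 0.057 to 0.17 with any array left out), and Mir721, with the same seed, lay at 0.27 (SE 0.17, adjusted p = 0.31). Of the remaining families, Mir181d lay at -0.33 (adjusted p = 0.064), the smooth muscle microRNA gene Mir143 at -0.30 (0.062), Mir31 at 0.28 (0.090), Mir15a at 0.14 (0.57), Mir92-2 at 0.10 (0.71), Mir1b at -0.09 (0.84) and the red cell microRNA gene Mir486 at -0.13 (0.52).

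The imprinted Dlk1-Dio3 region of chromosome 12 holds a long row of microRNA genes that are expressed from the maternal chromosome. Of 36 measured genes on the list of this region, 11 were members, and 3 of them rose, 0 fell and 8 did not pass. Of these risers, Mir493 and Mir539 lay below the level of the last member, 5.399, on both PBS arrays. They were members only through their BLM values. None of the listed genes below the limit of the 300 passed the threshold. Mir493 stood at 4.51 and 5.19 after PBS against 6.07 and 6.11 after BLM, up by 1.24 (SE 0.22, adjusted p = 0.014), a call lost without the first BLM array (adjusted p = 0.054) or the second (0.055). Mir758 rose by 0.66 (SE 0.10, adjusted p = 0.00832; 0.0502 without the second BLM array) and Mir539 by 0.71 (SE 0.10, adjusted p = 0.00614). In RefSeq order, 3 further members, Mir673, Mir544 and Mir453, lie in the stretch from Mir673 to Mir453; they were added after their values were seen. Mir544 had the highest difference of all 300 members. It gave 5.99 and 6.10 in the PBS group and 7.49 and 8.14 in the BLM group, a rise of 1.77 or 3.41-fold (SE 0.22, adjusted p = 0.00437), which held with each array left out. Of the 14 members in the stretch 4 rose and 10 did not pass, 12 differences were above 0, and the median was 0.35. Over all genes 15.2% rose, with a median of 0.05, and over the 300 members 11.0% rose, with a median of -0.16. Mir494 lay at -0.34 (SE 0.10, adjusted p = 0.064). Mir329 and Mir667 depended on single arrays, with 0.95 (adjusted p = 0.013) for Mir329 without the first BLM array against 0.46 (0.35) in the full fit, and 0.84 (0.013) for Mir667 without the first PBS array against 0.58 (0.073).

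**Figure D3:**
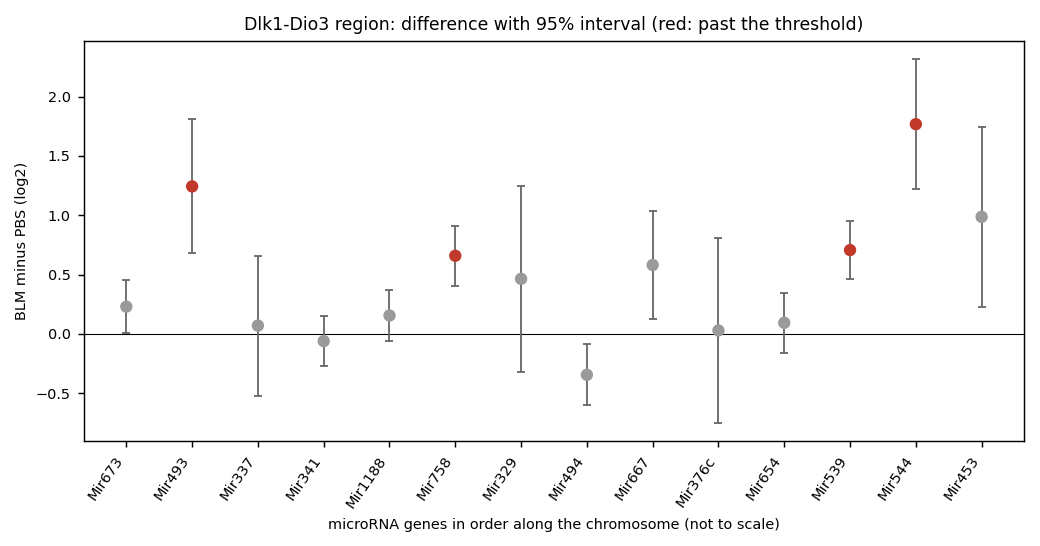
BLM minus PBS difference (log2, vertical) of the 14 members between Mir673 and Mir453 in their order along chromosome 12, not drawn to scale; bars are 95% intervals of the limma fit and red marks the 4 genes past the threshold. Mir493, Mir758, Mir539 and Mir544 lie above 0 and Mir494 below it; intervals are not adjusted for the number of genes, and those of Mir673, Mir494, Mir667 and Mir453 leave out 0 although these genes did not pass.

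Of the 8 highest and 8 lowest differences, 9 belonged to genes outside these families, Mir1954 among them, which is described with the brightest members. Mir3058 stood at 6.10 and 6.06 after PBS against 7.28 and 7.83 after BLM, up by 1.47 (SE 0.19, adjusted p = 0.00473). Mir694 rose by 1.29 (SE 0.13, adjusted p = 0.00217) and Mir7230 by 1.03 (SE 0.11, adjusted p = 0.00292). At the other end, Mir5123 gave 9.70 and 9.81 in the PBS group and 8.31 and 7.98 in the BLM group, a fall of 1.61 or 3.04-fold (SE 0.13, adjusted p = 0.00139). Mir1938 fell by 1.57 (SE 0.13), Mir6976 by 1.49 (SE 0.14), Mir1192 by 1.31 (SE 0.18) and Mir3097 by 1.30 (SE 0.13), with adjusted p from 0.00142 to 0.00655. The calls of these 8 genes, leaving aside Mir1954, held with each array left out.

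The microRNA genes were then set beside their host genes. For 86 members, a measured RefSeq gene overlaps the microRNA gene on the same strand, 83 different hosts in all. Of these hosts 22 rose and 12 fell, or 41.0% called against 25.3% of all genes. That background holds dim genes, whereas most hosts lay above the median level. With genes below that level left out, 53.4% of all genes were called. Of the 8 called risers with such a host, 2 had a host that also rose and 6 a host that did not pass. For the 21 called fallers, the host fell in 7 cases, rose in 2 and did not pass in 12. For the 57 microRNA genes that were not called, 18 hosts rose, 5 fell and 34 did not pass. Across the 86 pairs the differences of microRNA gene and host had a Pearson r of 0.26 and a Spearman rho of 0.16, and genes are not independent replicates. Called hosts dropped from 34 to 17 without the first BLM array and to 19 without the second, where 13.3% and 14.5% of all genes were called.

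Several named members differed from their host in size. Nudt4, the host of Mir3058 and a gene of phosphate metabolism, differed by 0.001 (SE 0.09), Mir100hg, the long noncoding host of Mir100, by 0.06 (SE 0.17), and the galactosyltransferase gene B4galt1, the host of Mir5123, by 0.04 (SE 0.08). Ctdspl, the phosphatase gene around Mir26a-1, lay at 0.10 (SE 0.09), Nfyc, which encodes a transcription factor subunit and holds Mir30c-1 and Mir30e, at 0.12 (SE 0.10), and Srf, the serum response factor gene that holds Mir6976, at -0.18 (SE 0.08). None of these hosts passed the threshold, and the differences between microRNA gene and host were not tested. With their hosts fell Mir1938 in Ifrd1 (host -0.66, adjusted p = 0.0045), Mir3097 in Rgs12 (-0.55, 0.0090), Mir1192 in Klf9 (-0.60, 0.036) and Mir34b in Hoatz (-0.58, 0.040). Cdc20b, the host of Mir449c and a gene of multiciliated cells, fell by 0.32 (SE 0.08, adjusted p = 0.043).

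**Figure D4:**
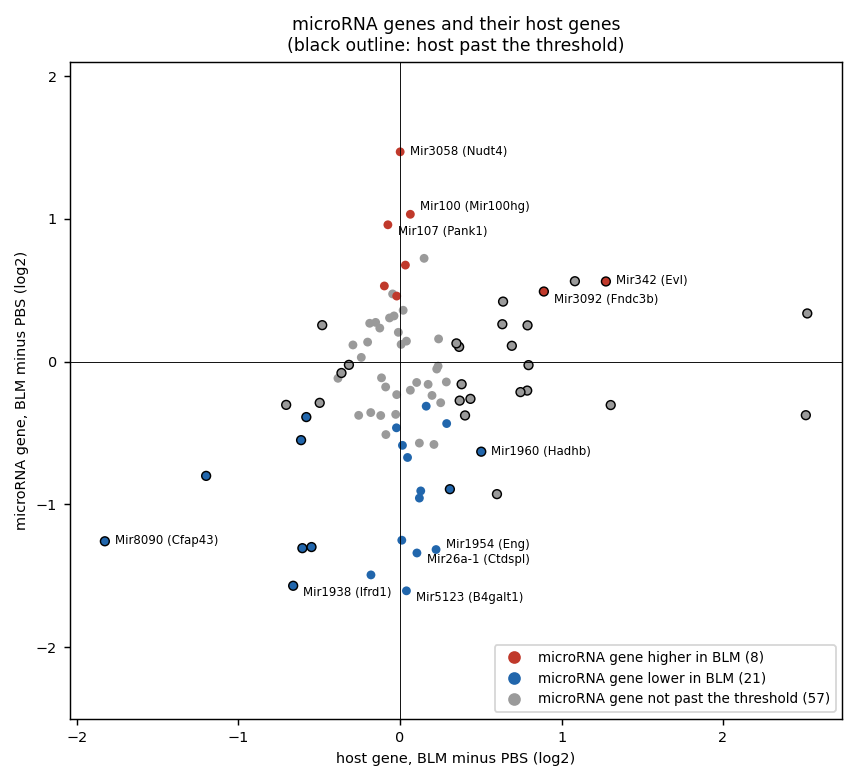
BLM minus PBS difference (log2) of 86 microRNA genes (vertical) against that of the host gene they lie in (horizontal); the colour gives the call of the microRNA gene and a black outline marks a host past the threshold. Mir3058, Mir100, Mir5123 and Mir26a-1 lie far from 0 on the vertical axis and near 0 on the horizontal one, while Mir1938 and Mir8090 lie below 0 on both.

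Most of the brightest members fell. Of 19 microRNA genes at a mean level of 14 or more, 12 fell and 0 rose, and all 19 differences were below 0, with a median of -0.57. Among the 482 other genes at that level, 16.2% fell and 30.5% rose, with a median of 0.14. After cyclic loess scaling 15 of the 19 fell and 0 rose, against 24.5% and 20.1% of the other genes. With the clusters of a gene averaged, 9 of the 19 fell, with a median of -0.40. Adjusting over every transcript cluster also left 9. Several of the 19 belong to the repeated families described below, so they are not 19 separate readings. Without the first BLM array, 6 of the 19 fell. In the group from 10 to below 14, 33.3% of 18 members fell and 5.6% rose, against 18.1% and 34.6% of other genes, and from 8 to below 10 the shares were 29.3% and 9.8% of 41 members against 18.5% and 28.4%. From 7 to below 8, fewer members than other genes were called in either direction, with 13.0% of 46 lower and 15.2% higher against 17.8% and 22.2%. From 6 to below 7, 20.4% of 98 members fell and 10.2% rose, against 14.4% and 16.8%, and from 5 to below 6 the shares were 9.0% and 14.1% of 78 against 5.5% and 8.4%. In that dimmest group the members begin at 5.399 and the other genes at 5, so these shares do not compare genes of like level. Across the 300 members, the Spearman rho between mean level and difference was -0.33, and across all other genes it was 0.06. Levels of different genes depend on their probes and are not amounts.

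**Figure D5:**
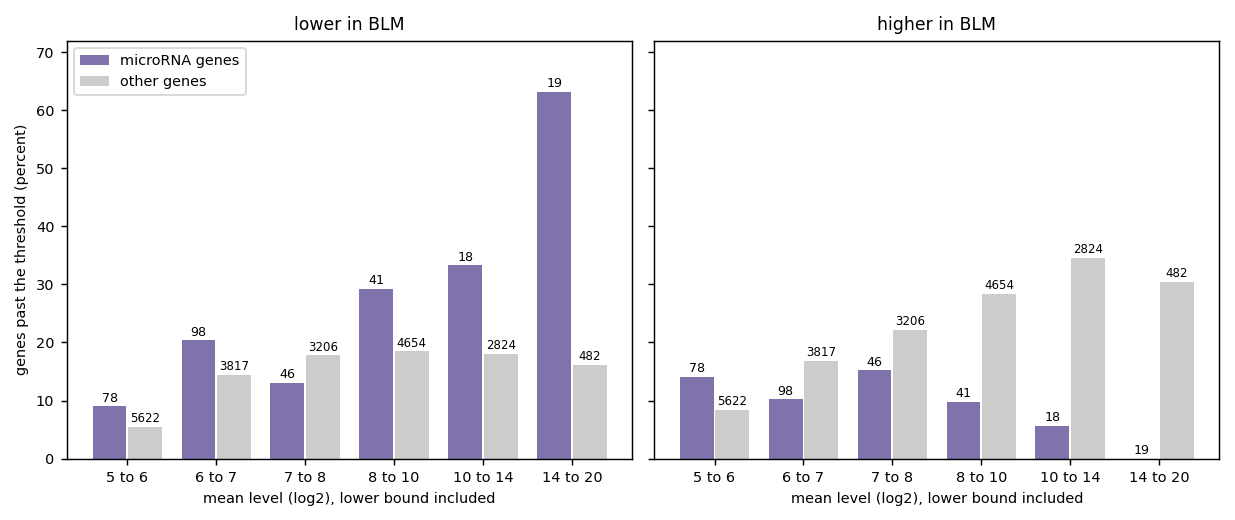
Share of genes past the threshold (percent, vertical) that were lower (left) or higher (right) in BLM, by mean level over the 4 arrays (log2, horizontal), for the 300 microRNA genes (purple) and all other genes (grey); the number over a bar is the number of genes in that group. In the brightest group, 63.2% of 19 microRNA genes fell and 0 rose. In the dimmest group the microRNA genes begin at 5.399 and the other genes at 5.

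Mir703, Mir3470b, Mir3473a, Mir669e, Mir684-1 and Mir684-2 had the highest levels of all members, 18.1 to 19.4. Mir3473a stood at 19.6 on both arrays after PBS against 18.5 and 18.7 after BLM, and fell by 0.94 (SE 0.09, adjusted p = 0.00235), and Mir3470b fell by 0.57 (SE 0.085, adjusted p = 0.00783; 0.052 without the first BLM array). Mir703 lay at -0.16 (SE 0.09), Mir669e at -0.64 (SE 0.27), Mir684-1 at -0.30 (SE 0.11) and Mir684-2 at -0.28 (SE 0.11), and these 4 did not pass. Mir1954, at 18.4 and 18.0 on the PBS arrays and 16.9 on both BLM arrays, fell by 1.32 (SE 0.16, adjusted p = 0.00413), while its host Eng, a TGF-beta co-receptor gene of endothelium, lay at 0.22 (SE 0.11, adjusted p = 0.20).

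A few of the members' strands occur in many places. Each of the 336 different mature sequences of the members was searched as an exact match, on both strands, in the 32851 RefSeq promoter windows of 300 bases. No copy was found for 325 of them, 7 occurred in 1 or 2 windows, and 4 occurred in more. Those 4 were chosen for display after this count, and the capitals mark the run of 16 bases that miR-3473a and miR-3473b share.
miR-3473a (Mir3473a): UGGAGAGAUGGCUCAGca
miR-3473b (Mir3473b): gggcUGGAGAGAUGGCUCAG
miR-3470b (Mir3470b): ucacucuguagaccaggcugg
miR-3471 (Mir3471-1): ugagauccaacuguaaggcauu
The strand of Mir3473b was found in 32 windows (0.0974%), that of Mir3471-1 in 11 (0.0335%), that of Mir3470b in 10 (0.0304%) and that of Mir3473a in 9 (0.0274%). Mir3470b, Mir3473a and Mir3471-1 are 3 of the 19 brightest members; of these 19, 12 had a strand to search. Mir3473b, the gene of the strand with most copies, has a mean level of 8.63. All 4 genes fell, Mir3471-1 by 0.92 (SE 0.15, adjusted p = 0.0099) and Mir3473b by 0.59 (SE 0.09, adjusted p = 0.00917). A cluster's value for such a gene can hold signal from other transcripts with the same bases, and how much was not tested.

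The families miR-297, miR-466, miR-467 and miR-669 come from repeated units, most of them in an intron of Sfmbt2 on chromosome 2. They gave 69 of the 300 members, of which 1 rose, 15 fell and 53 did not pass, with a median difference of -0.30. The 15 that fell are 21.7% of the family members, against 10.1% of all genes. Identical values were deposited for many of them, so the 69 members hold 48 different sets of values, of which 1 rose and 7 fell (14.6%), nearer to the share over all genes, with a median of -0.27. The share over all genes includes dim genes, whereas the median level of the 48 sets was 8.47. With genes below the median level of all genes left out, 21.9% of all genes fell. Of these repeats, 9 Mir669a genes share a single set of values, a fall of 0.61 (adjusted p = 0.0082). Of the brightest of the family, Mir467f fell by 0.75 (SE 0.12, adjusted p = 0.011) and Mir669m-2 by 1.04 (SE 0.18, adjusted p = 0.012), and both missed the threshold without the first BLM array (adjusted p = 0.052 and 0.053). Mir669h lay at -0.23 (SE 0.18, adjusted p = 0.42), and was called without the first PBS array, at -0.49 (adjusted p = 0.039). Counted once per set of values, the 300 members hold 279 sets, of which 33 rose and 55 fell.

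Genes of the microRNA machinery moved in both directions, and most did not pass. Of 6 measured genes for nuclear processing and export, the export factor gene Ran rose by 0.63 (SE 0.10, adjusted p = 0.0099), while Ddx17, a helicase of the Drosha complex, fell by 0.84 (SE 0.09, adjusted p = 0.0029) and Khsrp, which promotes the cutting of let-7 precursors, by 0.38 (SE 0.08, adjusted p = 0.026). Drosha lay at 0.10 (SE 0.09, adjusted p = 0.51) and Xpo5, the exporter of hairpins, at 0.27 (SE 0.09, adjusted p = 0.095). Of 9 genes around Dicer, the Dicer partner gene Prkra rose by 0.88 (SE 0.11, adjusted p = 0.0051), and 8 did not pass, Dicer1 among them at -0.27 (SE 0.08, adjusted p = 0.062). Of 8 genes of the silencing complex, Ddx6, a helicase of silenced messenger RNAs, fell by 0.51 (SE 0.09, adjusted p = 0.012), and Ago2, the Argonaute that cuts its target, lay at -0.04 (SE 0.10, adjusted p = 0.80). In these 3 lists 5 of 23 genes passed the threshold, against the background of 25.3%. That background holds dim genes, whereas most genes of these lists lay above the median level. With genes below that level left out, 53.4% of all genes were called.

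The limit of 300 fell in a dense part of the levels. Mir744 and Mir297-1 were the last genes inside, with mean levels of 5.404 and 5.399, and Mir3095 and Mir3970 the first outside, at 5.397 and 5.393. The same rule on the PBS arrays alone keeps 289 of the 300 members and on the BLM arrays alone 290. Of the 11 members that the PBS arrays alone would leave out, 7 rose, and of the 10 that the BLM arrays alone would leave out, 5 fell. Mir125b-2, Mir493 and Mir539, called higher, lay below the mean level of Mir297-1 on both PBS arrays. The PBS mean of Mir107, also called higher, lay below it too. Mir26a-1, Mir30e and Mir142, called lower, lay below it on both BLM arrays. With the 300 taken by the PBS mean, 90 were called, 26 higher and 64 lower. Over the 194 members with a hairpin in the sequence table, its GC content had a Pearson r of 0.03 with the difference.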

How the data were processed

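The data are 4 Affymetrix arrays, 2 PBS and 2 BLM, grouped by the treatment in their titles. The authors deposited log2 levels per transcript cluster; the submitters' processing notes name RMA and Affymetrix Expression Console. For versions, array build and further scaling, nothing is given in the sources used here. RMA pulls the arrays to a common distribution, so a shift shared by most genes cannot be seen. Array medians were 5.44 to 5.49.

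From 65956 transcript clusters, the 30604 with exactly 1 symbol were kept, and for genes with several clusters the one with the highest mean, which left 30142 genes. Of 1178 clusters that name a microRNA gene, 537 carry several symbols and were not used, 283 of them because the gene is listed with its database name. Genes were compared with limma 3.58.1 in R 4.3.3 (lmFit, eBayes, two-sided, no covariate), with Benjamini-Hochberg adjustment over all 30142 genes, a threshold of 0.05 and 95% intervals. SE is the standard error of the log2 difference, n = 2 arrays per group. The fit had 2 residual and 3.33 prior degrees of freedom, and the number of arrays limits the precision. In simulated data with far fewer changed genes than here, the fit found 0 of 68 changes of 0.5 log2 units. It found 36 of 66 changes of 1 unit and 66 of 66 of 2 units, with 4 false calls. The recovery varied between draws.

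The members and gene lists were chosen with earlier results of these data known, so no test was made over the members alone. Genes named are all measured members of the miR-21, miR-29 and miR-200 families, the 8 highest and 8 lowest called differences, the 6 highest levels, up to 4 members of each other family list by level, members with the seed of a named member, the genes at the limit of 300, hosts of named members, and, of each other list, up to 4 called genes with the largest differences, with Ptprc, Xist, Drosha, Xpo5, Dicer1, Ago2 and Zeb1 whatever their result. Mir107, Mir218-1, Mir539, Mir1931, Mir376c, Mir673, Mir453, Mirlet7a-2, Mir3471-1, Mir3473b, Mir8090, Mir99a, Mir10b, Mir99b and Mir125b-1, and other targets and markers named as not passing, were named after their values were seen. Neighbours lie within 10 kb on 1 strand in RefSeq GRCm38.p6, the source of all positions and sequences.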

Additional observations from a re-analysis of the deposited data

How the results depend on the processing

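Leaving out each array in turn gave 58 to 94 called members (20 to 38 higher, 36 to 66 lower), a median difference of -0.25 to -0.08, 17 to 23 called hosts and 25 to 32 called genes of the machinery, target and marker lists. The replicate number shared by the titles was tried as a replicate block, with 92 members called, 33 higher and 59 lower; the numbers are not stated to pair samples, and the correlation between the groups of the deviations of same-numbered samples was 0.014. With the block, 26 hosts and 32 list genes were called, and Mirlet7d, Mir34b, Mir130a and Mir3095 missed the threshold. Adjusting over every transcript cluster gave 69 called members (23 higher, 46 lower) and 22 hosts instead of 34, with more features in the adjustment. Over all 595 microRNA genes 122 were called and the median was -0.027, since this setting adds 295 dimmer genes. The other settings (dim genes, X and Y genes or, added after seeing the data, genes with shared values left out, clusters of a gene averaged, a robust prior with a trend, median centring, cyclic loess, members by the PBS mean) gave 87 to 101 called members, each with more lower than higher. Of the 96 called members none changed sign under any setting of the fit. Median centring and cyclic loess turned the sign of Mir200b (-0.015 and -0.036) and Mir297-1 (-0.0076 and -0.019), neither called. Leaving out an array turned the sign of 15 uncalled genes, with ranges of -0.17 to 0.17 for Mir29a, -0.22 to 0.16 for Mir200c, -0.27 to 0.29 for Mir200b, -0.15 to 0.10 for Mir449c, -0.10 to 0.31 for Mir92-2, -0.069 to 0.15 for Mir30b, -0.043 to 0.32 for Mir15a, -0.038 to 0.24 for Mir155, -0.29 to 0.025 for Mir486, -0.37 to 0.20 for Mir1b, -0.025 to 0.95 for Mir329, -0.49 to 0.036 for Mir669h, -0.29 to 0.32 for Mir297-1, -0.11 to 0.040 for Mir3970 and -0.087 to 0.16 for Mirlet7b. For these changes of sign the cause was not tested. With 2 arrays a group, a 95% interval reached 0.244 log2 units to either side of a difference at the median over all genes.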

Other observations

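Outside the 300, Mir218-1 was the single gene of the 295 microRNA genes below the limit that passed the threshold with a difference of at least 1 log2 unit, and it was named after its value was seen. It stood at 4.45 and 4.52 after PBS against 6.24 and 6.29 after BLM, a rise of 1.78 (SE 0.08, adjusted p = 0.000398). That is above the rise of every member, and its mean level, 5.374, ranks 305 of 595. Below the limit 26 of 295 genes were called, 13 higher and 13 lower, or 8.81% against 32.0% of the members.

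Mir1931, at 11.3 on both PBS arrays and above 12 on both BLM arrays, was the brightest member that rose, by 0.96 (SE 0.09, adjusted p = 0.00212). Mir107, within the pantothenate kinase gene Pank1, rose by 0.96 (SE 0.11, adjusted p = 0.00364), while Pank1 lay at -0.08 (SE 0.08, adjusted p = 0.555). The PBS mean of Mir107 lay below the level of the last member, 5.399, so Mir107 was a member only through its BLM values. Mir8090 fell by 1.26 (SE 0.24, adjusted p = 0.0168) in Cfap43, a gene of motile cilia, which fell by 1.83 (SE 0.09). The calls of Mir1931 and Mir107 held with each array left out. All 3 were named after their values were seen.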
